A study of Mus musculus with 2 samples.

Results

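Endothelial cell genes were followed in RNA sequencing of mouse mammary basal cells with a control hairpin of scrambled sequence (Scramble control) or a short hairpin RNA against Cdk14, a cyclin-dependent kinase (Cdk14-sh). They are 32 genes of endothelial junctions, receptors, capillary function and lipid handling, taken by symbol, and 30 of them are among the 15239 genes of the deposited table. Kdr and Erg are not analysed here. Both groups are labelled normal mammary gland and held 1 library each, with no strain, age, hairpin sequence or delivery given, and nothing but the hairpin is stated to differ. The list was drawn up with earlier results of these libraries known, so its counts and medians describe it and support nothing. With 1 library a group no difference has a replicate check and no test was made. The submitters' texts also name a human breast cancer line and, for RNA extraction, retinas. The sample labels and the mouse gene identifiers of the table were followed.

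Endothelial cells line blood vessels. They are held together by the cadherin Cdh5, the claudin Cldn5 and the adhesion molecule Pecam1, respond to vascular endothelial growth factors and angiopoietins through tyrosine kinase receptors, and in capillaries carry fatty acids from lipoproteins into the tissue. The mammary gland's epithelium and fat lie in a dense capillary bed. Transcription factors of the ETS family, such as Erg and Fli1, bind sequences with a GGAA core in the control regions of many endothelial genes.

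The table gives FPKM, the fragments of a gene per kilobase of its length and by the size of the library, and holds only genes above 0 in both libraries. Reads behind the values were recovered from gene lengths, on the assumption that 1 fragment counts as 2 reads. The totals were 10186924 reads for Scramble control and 10177185 for Cdk14-sh. Fold values are ratios of FPKM, and the range in parentheses is an exact 95% (Clopper-Pearson) interval that covers counting error only. Counts of genes use the log2 ratio of FPKM + 1, a scale that makes low genes look less different, and a gene is called measured where the mean of its levels is 1 FPKM or more. Gene positions are from GENCODE M21 (GRCm38), in which the 30 genes are protein coding and lie on 15 chromosomes. The targeted gene Cdk14 was at 2.06 FPKM in Scramble control and 0.713 FPKM in Cdk14-sh, 2.90-fold lower (2.19 to 3.87).

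Promoter windows are shown for the 3 genes with the lowest ratio and the 2 with a ratio nearest to 1 among the 16 of 30 genes that have a window in the RefSeq promoter table (GRCm38.p6, plus strand for all 5, 250 bases before to 50 after the annotated start). Emcn, Adgrl4 and Robo4 stood at the low end, and Eng and Egfl7 near 1. The windows are chr3:137340828-137341127 for Emcn, chr3:151437632-151437931 for Adgrl4, chr9:37401722-37402021 for Robo4, chr2:32646345-32646644 for Eng and chr2:26580833-26581132 for Egfl7, the first of its listed starts. Capitals mark GGAAGT or CAGGAAG on either strand, which are forms of the ETS binding sequence and overlap where a T follows CAGGAAG.
Emcn: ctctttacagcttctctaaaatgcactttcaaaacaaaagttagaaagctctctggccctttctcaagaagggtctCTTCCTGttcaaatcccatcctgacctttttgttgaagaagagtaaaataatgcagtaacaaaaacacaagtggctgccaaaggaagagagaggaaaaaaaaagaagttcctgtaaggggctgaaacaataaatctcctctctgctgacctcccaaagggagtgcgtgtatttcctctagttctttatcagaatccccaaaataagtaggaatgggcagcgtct
Adgrl4: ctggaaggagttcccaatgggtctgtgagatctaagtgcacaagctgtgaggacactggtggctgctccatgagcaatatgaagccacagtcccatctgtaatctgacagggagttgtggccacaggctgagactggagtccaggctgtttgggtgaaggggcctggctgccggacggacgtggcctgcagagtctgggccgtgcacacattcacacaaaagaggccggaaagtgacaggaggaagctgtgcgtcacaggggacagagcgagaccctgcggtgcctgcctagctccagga
Robo4: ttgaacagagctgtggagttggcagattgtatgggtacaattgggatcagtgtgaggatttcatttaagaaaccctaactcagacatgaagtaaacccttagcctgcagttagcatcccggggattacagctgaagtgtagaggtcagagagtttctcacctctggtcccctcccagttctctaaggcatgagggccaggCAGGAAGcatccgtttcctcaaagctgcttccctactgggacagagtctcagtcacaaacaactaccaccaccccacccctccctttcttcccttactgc
Eng: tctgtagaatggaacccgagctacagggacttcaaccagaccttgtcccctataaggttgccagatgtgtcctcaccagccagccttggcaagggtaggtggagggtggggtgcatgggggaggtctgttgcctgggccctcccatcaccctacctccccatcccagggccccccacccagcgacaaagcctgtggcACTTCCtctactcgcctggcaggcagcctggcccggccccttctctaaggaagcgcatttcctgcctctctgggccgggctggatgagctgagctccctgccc
Egfl7: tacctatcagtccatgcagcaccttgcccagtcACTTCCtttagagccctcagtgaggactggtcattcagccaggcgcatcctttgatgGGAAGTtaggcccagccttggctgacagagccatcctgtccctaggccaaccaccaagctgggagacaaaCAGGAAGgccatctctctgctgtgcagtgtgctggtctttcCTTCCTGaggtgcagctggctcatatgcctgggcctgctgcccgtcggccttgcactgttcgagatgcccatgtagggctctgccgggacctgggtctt

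Of the 16 windows, 9 held GGAAGT or CAGGAAG (56.2%), against 31.5% of the first windows of all 27025 genes in that table. Emcn and Robo4, both far lower in Cdk14-sh, had 1 match each, and Adgrl4 had none. Eng had 1 match and Egfl7 had 4, with levels that were close in the libraries. By ratio, 6 of the 11 windows of genes at least 2-fold lower and 3 of the other 5 had a match. AACAAT, a form of the sequence bound by Sox factors, was in 3 of 16 windows (18.8%) against 10.9% of all. GATAAG, bound by Gata factors, was in 2 of 16 (12.5%) against 7.43%. All 4 motifs were searched on both strands. A match is a string of letters and not a bound site.

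Most of the endothelial genes were lower in the Cdk14-sh library, by very unequal amounts. Of the 29 measured genes, 18 were lower by at least 2-fold and 0 were higher by as much. Among all 12830 measured genes 13.5% were lower and 14.2% higher by that amount. The median log2 ratio was -1.67 over the 29 genes and 0.02 over all measured genes, whose SD was 1.02. The counting interval lay below 1 for 22 of the 29 genes and above 1 for 3, against 33.2% and 35.8% of all measured genes with a length. Vwf, with a mean under 1 FPKM, is the gene left out. The filter keeps genes through their higher library: 29 of the 30 genes reached 1 FPKM in Scramble control and 21 in Cdk14-sh. Without the filter, 18 of 30 genes were at least 2-fold lower, against 11.7% of all genes. By the ratio of FPKM, 8 genes were at least 10-fold lower (2.04% of all measured genes), 7 were 5 to 10-fold lower, 6 were 2 to 5-fold lower, 8 were within 2-fold and Ptprb was higher. Of the 29 measured genes, 20 were at least 2-fold lower and 1 higher by this ratio. Among all 12830 measured genes 2236 were lower and 2354 higher by as much. In bulk RNA, fewer cells of a type and less RNA per cell cannot be told apart.

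**Figure D1:**
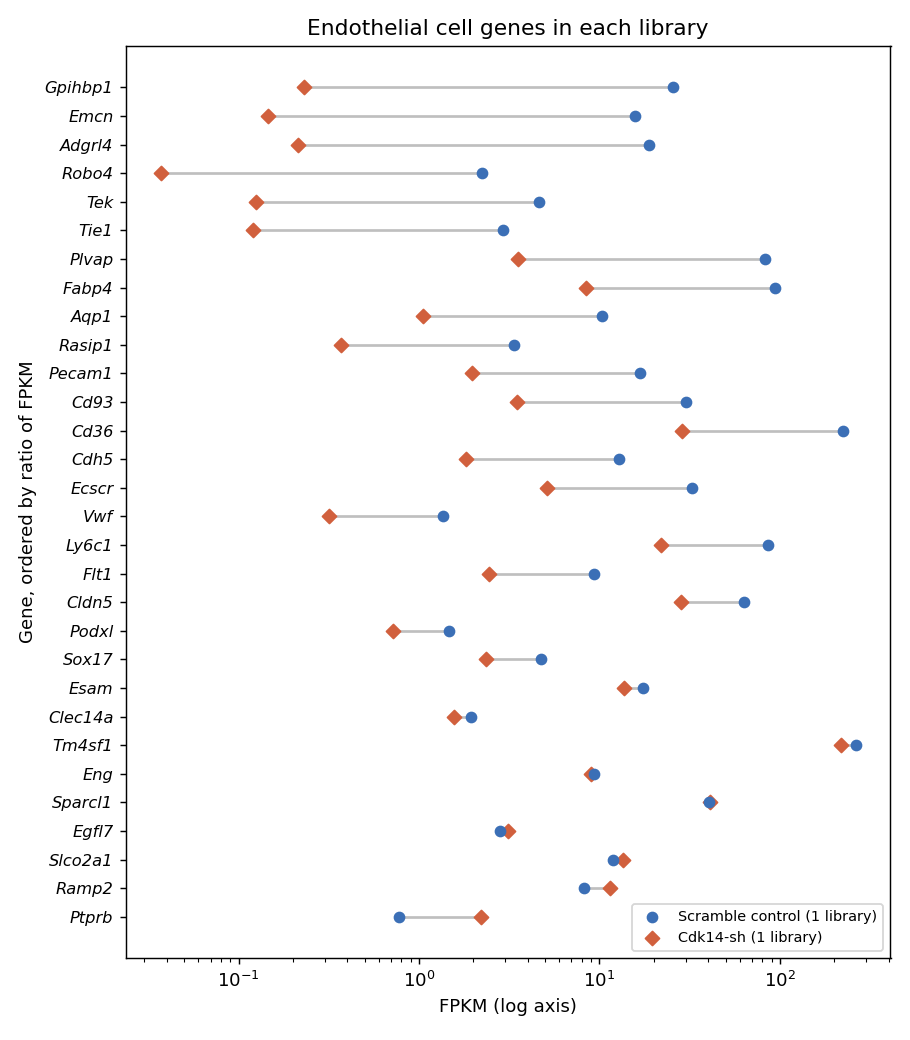
FPKM of the 30 endothelial cell genes (log axis) in the Scramble control library (blue circles) and the Cdk14-sh library (red diamonds), ordered by ratio. The top rows are separated by about 2 powers of 10, from 25.5 to 0.231 FPKM for Gpihbp1, while Eng and Sparcl1 nearly coincide and Ptprb lies the other way.

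The order of the genes by level differed between the libraries. In Scramble control the highest were Tm4sf1, Cd36, Fabp4, Ly6c1 and Plvap, and the lowest was Ptprb at 0.775 FPKM. In Cdk14-sh the highest were Tm4sf1, Sparcl1, Cd36, Cldn5 and Ly6c1, and the lowest was Robo4 at 0.0371 FPKM. Plvap went from rank 5 to 12, Gpihbp1 from 10 to 25 and Emcn from 14 to 27, while Eng went from 19 to 9 and Ramp2 from 20 to 8. The median level of the 30 genes was 12.4 FPKM in Scramble control and 2.39 FPKM in Cdk14-sh.

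All 7 junction and adhesion genes were lower in Cdk14-sh, 5 of them by 2-fold or more. Of all measured genes, 48.6% had a log2 ratio below 0 and 13.5% were at least 2-fold lower. Emcn encodes endomucin, a sialomucin of capillary and venous endothelium (ENSMUSG00000054690, chromosome 3, 137341067 to 137432185, plus strand). It was at 15.7 FPKM in Scramble control and 0.145 FPKM in Cdk14-sh, from 864 and 8 reads, which is 108-fold lower (41.8 to 398). Adgrl4, an adhesion receptor of the G protein-coupled class, was at 18.9 and 0.214 FPKM, from 884 and 10 reads, or 88.3-fold lower (37.6 to 273). Both had 10 or fewer reads in Cdk14-sh while being well covered in Scramble control. Pecam1 (CD31) lies at endothelial cell contacts (ENSMUSG00000020717, chromosome 11, 106654217 to 106750628, minus strand). It was at 16.9 and 1.96 FPKM, 8.63-fold lower (6.62 to 11.4). Cdh5, the cadherin of adherens junctions, was at 12.8 and 1.82 FPKM, 7.04-fold lower (5.02 to 10.1). These junction genes had like ratios, with intervals that overlap. The tight junction gene Cldn5 was less far apart, at 63.6 and 28.2 FPKM, 2.25-fold lower (1.91 to 2.67). Podxl, a sialomucin that kidney podocytes also make, was at 1.47 and 0.716 FPKM, 2.05-fold lower (1.17 to 3.69) and short of 2-fold on the log2 scale. Esam, an adhesion molecule of endothelial tight junctions, was at 17.4 and 13.7 FPKM, 1.27-fold lower (1.05 to 1.53). Esam and Pecam1 were at nearly the same level in Scramble control, and in Cdk14-sh Esam was several times above Pecam1.

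Genes of the angiopoietin axis went in opposite directions. Tek (Tie2) is the receptor for angiopoietins, and Tie1 is its partner. Both lie on chromosome 4, Tek (ENSMUSG00000006386) at 94739289 to 94874976 on the plus strand and Tie1 (ENSMUSG00000033191) at 118471191 to 118490061 on the minus strand. Tek was at 4.60 FPKM in Scramble control and 0.125 FPKM in Cdk14-sh, from 221 and 6 reads, 36.8-fold lower (12.3 to 181). Tie1 was at 2.91 and 0.120 FPKM, from 146 and 6 reads, 24.3-fold lower (8.0 to 121). Both receptors rested on 6 reads in Cdk14-sh, and their intervals overlap widely. Ptprb encodes VE-PTP, the phosphatase that acts on Tek and associates with Cdh5. It was at 0.775 FPKM in Scramble control and 2.19 FPKM in Cdk14-sh, 2.83-fold higher (2.06 to 3.96), the highest ratio of the 30 genes. Its log2 ratio with a pseudocount was 0.85, and its read numbers are approximate because its length did not give multiples of 0.5 reads. The ligand Angpt1, which activates Tek and is made by cells around the vessel, was at 11.3 and 31.2 FPKM, 2.75-fold higher (2.41 to 3.15); 14.2% of its exonic bases overlap genes on the opposite strand. Flt1, a receptor for Vegfa, Vegfb and Pgf that also has a soluble form, was at 9.38 and 2.43 FPKM, 3.86-fold lower (3.25 to 4.60). Its ligands, named here after their values were seen, were less far apart. Vegfa was at 23.4 and 26.7 FPKM, Vegfb at 6.48 and 11.6 FPKM, and Pgf at 72.8 and 50.9 FPKM.

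The 6 other surface receptors divided evenly, with 3 at least 2-fold lower and 3 close to equal. Of all measured genes, 13.5% were lower by as much. Robo4, a receptor that stabilizes vessels and binds Unc5b, was at 2.22 and 0.0371 FPKM, from 120 and 2 reads, 59.9-fold lower (10.4 to 2407). Unc5b itself was at 2.92 and 1.65 FPKM, 1.77-fold lower (1.25 to 2.54). Robo4 lies on chromosome 9 at 37401897 to 37415115, 113.0 kb from Esam. It had the 4th lowest ratio of the 30 genes, while the ratio of Esam was nearer to 1. Cd93 and Clec14a are related C-type lectins that both bind the matrix protein Mmrn2. Cd93 was at 30.1 and 3.50 FPKM, 8.59-fold lower (7.10 to 10.5). Clec14a was at 1.95 and 1.56 FPKM, with an interval from 1.99-fold lower to 1.27-fold higher. Mmrn2 lay between them, at 10.8 and 6.34 FPKM, 1.70-fold lower (1.36 to 2.13). The intervals of Cd93 and Clec14a do not overlap. Ecscr, a regulator of endothelial migration, was at 32.5 and 5.12 FPKM, 6.34-fold lower (4.63 to 8.87). Eng (endoglin) is a coreceptor for BMP9 and TGF-beta that acts with Acvrl1. It was at 9.29 and 8.97 FPKM, a difference within counting error (1.27-fold lower to 1.19-fold higher), and Acvrl1 was at 1.52 and 2.30 FPKM (ratio 0.958 to 2.43). Tm4sf1, a tetraspanin-like protein that epithelial cells also make, had the highest level of the list in both libraries, at 263 and 219 FPKM, 1.20-fold lower (1.16 to 1.25).

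**Figure D2:**
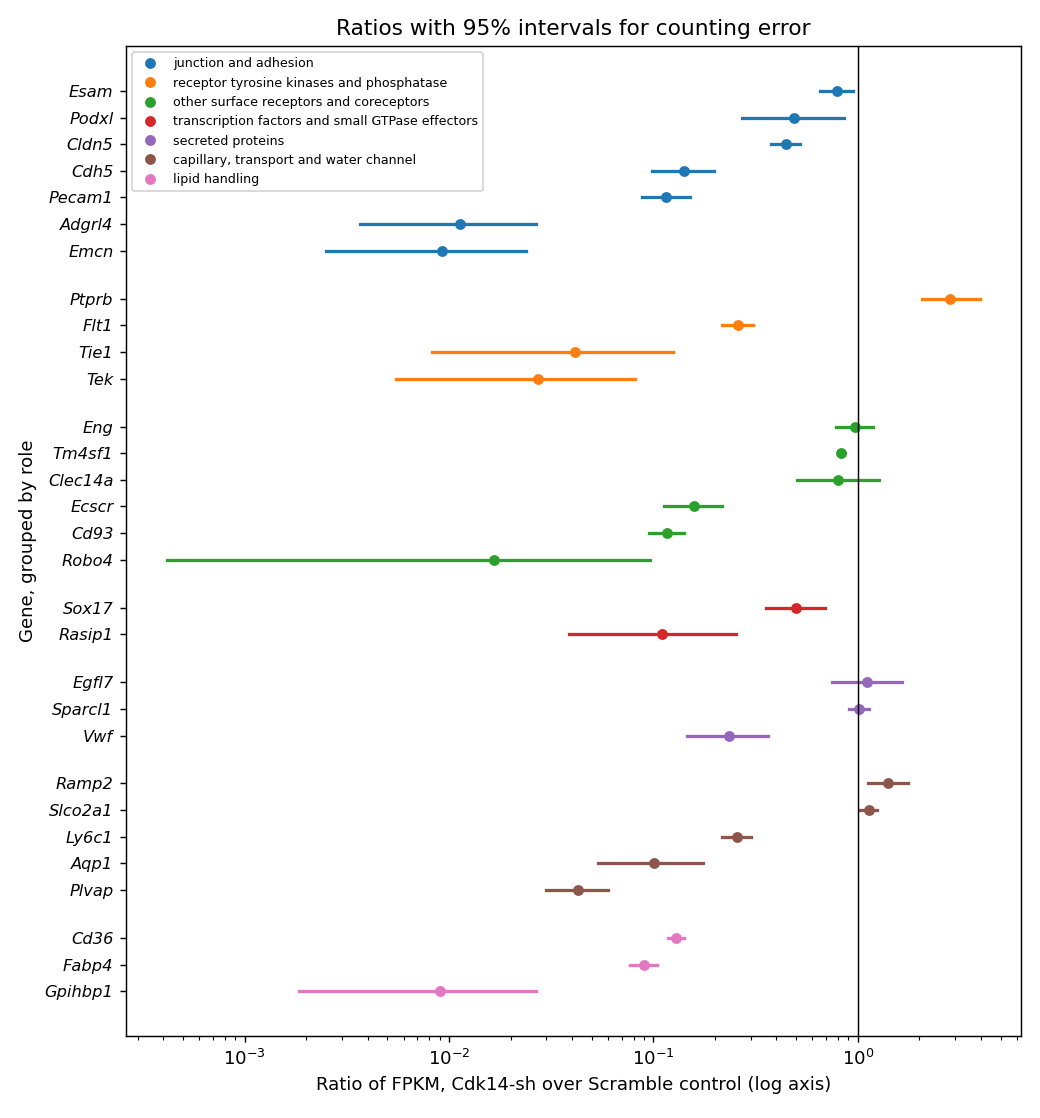
Ratio of FPKM, Cdk14-sh over Scramble control (log axis), for the 30 genes grouped by role; points are ratios and bars are 95% intervals for counting error alone, which do not include variation between cultures or animals. All 3 lipid handling genes lie at or below 0.129 (Cd36), whereas the other surface receptors spread from 0.0167 (Robo4) to 0.966 (Eng), and the widest bar is that of Robo4, with 2 reads in Cdk14-sh.

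The 3 lipid handling genes were all lower by at least 2-fold, against 13.5% of all measured genes. Gpihbp1 binds lipoprotein lipase and carries it to the inner face of capillaries (ENSMUSG00000022579, chromosome 15, 75596628 to 75599481, plus strand). It was at 25.5 FPKM in Scramble control and 0.231 FPKM in Cdk14-sh, from 664 and 6 reads, which is 111-fold lower (37.5 to 539) and the lowest ratio of the 30. Cd36, a fatty acid translocase that fat cells, macrophages and mammary epithelium also express, was at 223 and 28.8 FPKM, 7.73-fold lower (7.05 to 8.48). Fabp4, a fatty acid binding protein of capillaries and fat cells, was at 94.3 and 8.45 FPKM, 11.2-fold lower (9.63 to 13.0). Together they came to 343 FPKM in Scramble control and 37.5 FPKM in Cdk14-sh, which is 10.9% of the control sum. The family member Fabp5, 187.5 kb away on chromosome 3, was at 3.77 and 13.2 FPKM, 3.50-fold higher (2.67 to 4.65). Fat cells share Cd36 and Fabp4. Of 12 listed fat cell markers, Fabp4 included, 3 were in the table. The others were Lipe, the hormone-sensitive lipase, at 1.18 and 3.66 FPKM, and Plin4, a lipid droplet protein, at 0.034 and 1.39 FPKM. Both were higher in Cdk14-sh, the opposite of Fabp4. Plin4 had a mean under 1 FPKM and rested on 2 reads in Scramble control. For Lipe, 15.6% of the exonic bases overlap a gene on the opposite strand. Which cells the Cd36 and Fabp4 RNA came from was not tested. Adipoq, Plin1 and Lep are not analysed here.

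The partners of Gpihbp1 in lipoprotein breakdown did not share its ratio. In the lipoprotein lipase pathway 13 genes were measured. Of these, 3 were lower and 3 higher by 2-fold or more (23.1% each), against 13.5% and 14.2% of all measured genes. The median log2 ratio was 0.18. On the log2 scale the lowest were Pnpla2, the triglyceride lipase of lipid droplets (22.2 and 4.98 FPKM), Angptl4, an inhibitor of lipoprotein lipase (237 and 102 FPKM), and the fatty acid transporter Slc27a1 (13.8 and 5.76 FPKM). Lipoprotein lipase itself (Lpl), below the mean of 1 FPKM, was at 1.31 and 0.281 FPKM, 4.66-fold lower (2.64 to 8.77). Fabp5 and Lipe, given above, were among the higher genes. Apoe, the most abundant gene of the pathway, was at 1380.0 and 1311 FPKM.

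Capillary and transport genes were divided. Plvap forms the diaphragms of capillary fenestrae and caveolae (ENSMUSG00000034845, chromosome 8, 71497765 to 71511752, minus strand). It was at 83.0 FPKM in Scramble control and 3.56 FPKM in Cdk14-sh, from 1680 and 72 reads, 23.3-fold lower (16.7 to 33.5). The water channel Aqp1, which red cells and kidney tubules also have, was at 10.4 and 1.05 FPKM, 9.92-fold lower (5.72 to 18.6). Ly6c1, a surface antigen of capillary endothelium and leukocytes, was at 86.2 and 22.0 FPKM, 3.92-fold lower (3.33 to 4.62). Its copy Ly6c2 was at 1.22 and 0.359 FPKM. Their longest coding transcripts are 97.6% identical over 822 aligned bases, and the treatment of reads that map to several places is not stated, so the level of Ly6c1 is uncertain. Slco2a1, a prostaglandin transporter, was slightly higher, at 11.9 and 13.5 FPKM, 1.13-fold (1.03 to 1.25). Ramp2 pairs with Calcrl to form the adrenomedullin receptor. It was at 8.16 and 11.5 FPKM, 1.41-fold higher (1.12 to 1.76), although 33.4% of its exonic bases are shared with Vps25 on its strand and its value is uncertain for that reason. Calcrl was at 5.15 and 0.805 FPKM, 6.39-fold lower (3.97 to 10.8), and the ligand Adm was at 18.3 and 41.4 FPKM, 2.26-fold higher (1.86 to 2.76).

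Among transcription factors and effectors, Sox17, a SOX factor of arterial endothelium, was at 4.73 and 2.36 FPKM, 2.01-fold lower (1.45 to 2.81), and Gm37587 on the opposite strand overlaps 16.8% of its exonic bases. Rasip1, an effector of small GTPases needed for vessel lumens, was at 3.36 and 0.368 FPKM, 9.12-fold lower (3.93 to 25.9). It shares 20.4% of its exonic bases with Izumo1 on its strand and 22.5% with genes on the opposite strand, and the use of strand in counting is not stated, so this value is uncertain. Of the 3 secreted proteins, 1 was lower and 2 were within counting error. The clotting protein gene Vwf was at 1.36 and 0.318 FPKM, 4.27-fold lower (2.76 to 6.81). Egfl7, a secreted factor of endothelium whose gene hosts the microRNA Mir126a, was at 2.80 and 3.10 FPKM, within counting error (1.34-fold lower to 1.65-fold higher). Sparcl1, a matrix protein also made by pericytes and fibroblasts, was at 40.7 and 41.2 FPKM, within counting error as well (1.11-fold lower to 1.13-fold higher). Its direction turned in 3 of 9 alternative settings.

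The genes often used as specific to endothelium were not separated cleanly from those known in other cells. Of the 19 measured genes of the first kind, 14 were at least 2-fold lower, with a median log2 ratio of -1.81, and of the 10 of the second kind 4 were, with a median of -0.39. Among all measured genes 13.5% were lower by as much. The summed level of the first kind was 350.5 FPKM in Scramble control and 71.1 FPKM in Cdk14-sh, 20.3% of the control sum. That of the second was 749 and 355 FPKM, or 47.4%. Most of this second sum in each library was Tm4sf1 (263 and 219 FPKM) and Cd36 (223 and 28.8 FPKM). Within the first kind the ratios still ran from 111-fold lower (Gpihbp1) to 2.83-fold higher (Ptprb), and Egfl7, Clec14a and Esam were within 2-fold. The counting intervals of these 3 do not overlap that of Pecam1.

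**Figure D3:**
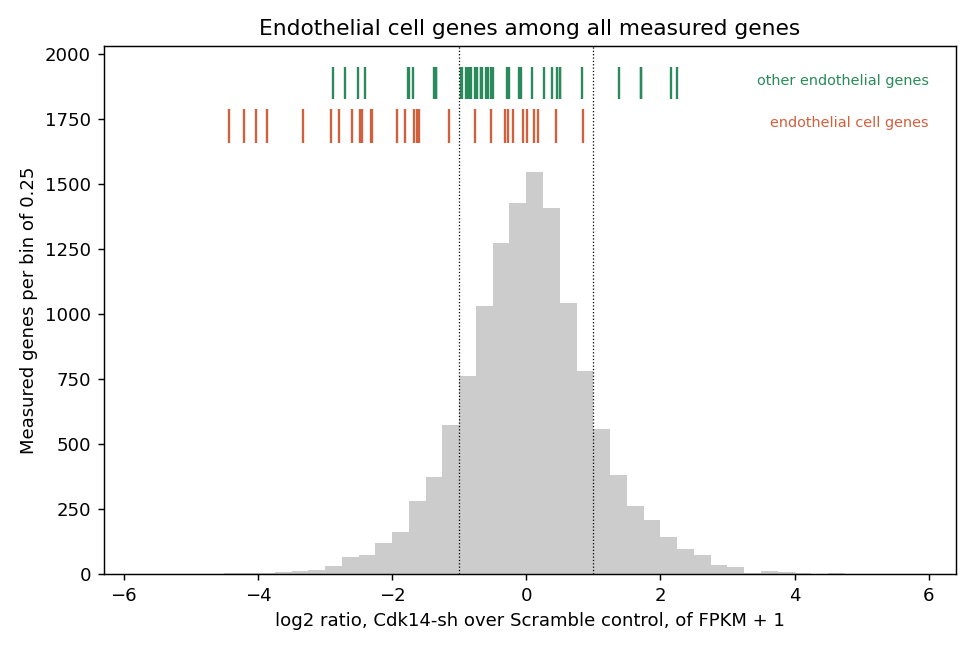
Histogram of log2 ratios (Cdk14-sh over Scramble control, FPKM + 1) of the 12830 measured genes, with ticks above it for the 29 measured endothelial cell genes (red) and 42 other measured endothelial genes (green); dotted lines mark 2-fold. The red ticks run from -4.43 to 0.85, with 18 to the left of the lower line, while the green ticks run from -2.89 to 2.25.

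Endothelial genes outside the list had a median nearer to 0. Of 64 further genes known from endothelium, 48 were in the table and 42 measured, of which 10 (23.8%) were lower and 5 (11.9%) higher by 2-fold or more, against 13.5% and 14.2% of all measured genes. Their median log2 ratio was -0.64. On the log2 scale of FPKM + 1 the lowest were Sele, Fli1 and Selp. By the ratio of FPKM, Selp, Cyyr1 (6.82 and 0.475 FPKM, 14.4-fold lower) and She (3.21 and 0.299 FPKM, 10.7-fold lower) were below Sele and Fli1. Sele (E-selectin) captures leukocytes and was at 24.9 and 2.50 FPKM, 9.96-fold lower (7.10 to 14.4). Fli1, an ETS factor, was at 19.5 and 2.14 FPKM, 9.10-fold lower (6.5 to 13.1). Selp (P-selectin) was at 4.87 and 0.0334 FPKM, from 219 and 1.5 reads, with an interval from 20.9-fold lower upwards. On the log2 scale the highest were Gja5, Hey1 and Gata2. Gja5, the arterial connexin 40, was at 0.0171 and 3.84 FPKM, from 1 read in Scramble control. Hey1, a Notch target of arterial cells, was at 1.44 and 9.87 FPKM, 6.84-fold higher (4.44 to 11.0), and Gata2, a GATA factor of endothelium and blood progenitors, was at 0.145 and 2.77 FPKM.

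Further genes of this list are named after their values were seen. The other leukocyte adhesion molecules were lower too, with Vcam1 at 30.8 and 8.46 FPKM and Icam1 at 283 and 110 FPKM. Icam1 was far above Pecam1 (16.9 FPKM) in Scramble control, and 11.7% of its exonic bases overlap a gene on the opposite strand. Which cells the Vcam1 and Icam1 RNA came from was not tested. Icam2, which resting endothelium carries, was at 3.56 and 5.26 FPKM (ratio 0.942 to 2.35). The other ETS factors were lower by less than 2-fold. Ets1 was at 42.8 and 39.7 FPKM, 1.08-fold lower (1.01 to 1.15), and Ets2 at 98.4 and 67.8 FPKM, 1.45-fold lower (1.37 to 1.54). The SOX factors related to Sox17 were both lower. Sox18 was at 12.7 and 4.25 FPKM, 2.98-fold lower (2.02 to 4.51), and Sox7 at 15.1 and 8.64 FPKM, 1.75-fold lower (1.42 to 2.16). The nitric oxide synthase gene Nos3 was at 3.46 and 0.749 FPKM, 4.61-fold lower (2.65 to 8.54), and 32.3% of its exonic bases overlap the opposite strand's genes. Cav1, the caveolar coat protein that basal cells also make, was at 143 and 204 FPKM, 1.42-fold higher (1.35 to 1.5). For 18 measured ligands and antagonists that act on vessels the median log2 ratio was 0.25. By 2-fold or more, Angptl2 and Angptl4 were lower and Adm and Angpt1 higher. That is 11.1% each way, near the 13.5% and 14.2% of all measured genes. Angptl2, a secreted angiopoietin-like protein, was at 28.4 and 4.71 FPKM, 6.03-fold lower (5.07 to 7.21). The Notch ligands Dll1 (51.2 and 25.7 FPKM) and Jag1 (73.2 and 121 FPKM) stood on opposite sides.

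Markers of the labelled cell type and of other cell types were compared as well. Counts by 2-fold stand beside 13.5% lower and 14.2% higher among all measured genes. The 10 basal epithelial markers summed to 4394 FPKM in Scramble control and 3125 FPKM in Cdk14-sh, with the keratin Krt14 at 1199 and 994 FPKM. The keratin Krt5 went the other way, at 129 and 242 FPKM, 1.87-fold higher (1.75 to 1.99), as did Oxtr, at 23.1 and 33.4 FPKM. Of the 10, 7 had a log2 ratio below 0, against 48.6% of all measured genes. By 2-fold or more, the contractile genes Cnn1 (359 and 107 FPKM) and Myh11 (104 and 46.6 FPKM) were lower and the basal factor Trp63 (8.42 and 23.9 FPKM) was higher. Of 8 defining endothelial markers, Pecam1, Cdh5, Tek, Tie1, Cldn5 and Vwf are in the table, which holds only genes above 0 in both libraries, and Tek and Tie1 rest on 6 reads in Cdk14-sh. Pericytes, which wrap capillaries, had 5 of 10 markers in the table, summing to 127 and 60.0 FPKM. Most of each sum was Rgs5, at 112 and 54.3 FPKM. Of the 4 measured, Mcam, Rgs5 and Abcc9 were lower and Des higher, each by 2-fold or more. Des rested on 2 reads in Scramble control. Pdgfrb, Cspg4 and Kcnj8 are not analysed here. Fibroblast markers, 7 of 10 in the table, summed to 299 and 121 FPKM. That sum was carried by Gsn (185 and 43.8 FPKM) and Dcn (104 and 41.2 FPKM). By 2-fold or more, 3 of the 6 measured were higher (Col1a2, Col3a1 and Fbln1) and 2 lower (Gsn and Dcn). Col1a1, at 3.92 and 7.79 FPKM, was higher by less. Immune cell markers, 8 of 16 in the table, summed to 108 and 394 FPKM, with 5 of 7 measured at least 2-fold higher. Cd74 (49.0 and 175 FPKM), H2-Ab1 (23.6 and 125 FPKM) and H2-Aa (5.45 and 50.2 FPKM) made up most of the sum in Cdk14-sh. Coro1a (2.61 and 1.06 FPKM) was lower, as was Ptprc (0.482 and 0.247 FPKM), which had a mean under 1 FPKM. Most endothelial genes stood on the other side from most immune markers, but on the same side as Coro1a and Ptprc. Of 7 lymphatic endothelial markers Reln (4.16 and 1.82 FPKM) and Pdpn (481 and 453 FPKM) were in the table, both genes that other cells make, and of 9 erythroid and platelet markers only Pf4, at 0.272 and 0.136 FPKM. The 9 luminal markers in the table summed to 1219 and 669 FPKM, a sum carried by the keratins Krt8 (456 and 223 FPKM) and Krt18 (382 and 106 FPKM) and by Epcam (349 and 273 FPKM). The other luminal markers were higher in Cdk14-sh: the keratin Krt19 (20.5 and 42.9 FPKM), Cldn4 (10.7 and 19.7 FPKM), and Kit, Esr1, Prlr and Pgr, which were below 1 FPKM in Scramble control. The part of these other cells in the endothelial differences was not tested.

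**Figure D4:**
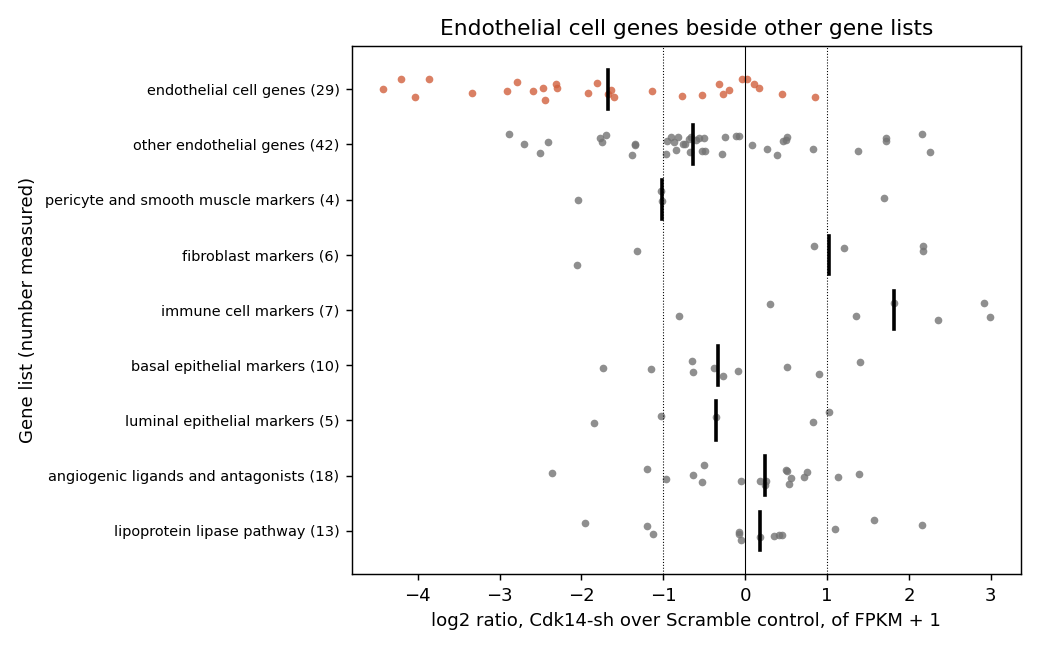
Log2 ratios (Cdk14-sh over Scramble control, FPKM + 1) of measured genes in the endothelial list and 8 other lists; each point is a gene, the black bar is the list's median, the number measured is in parentheses and dotted lines mark 2-fold. The endothelial cell genes have a median of -1.67, against -0.64 for the other endothelial genes and 1.82 for immune cell markers.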

How the data were processed

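The authors deposited 1 table of FPKM values with 1 column for each of the 2 libraries. Per the labels' protocols, a stranded mRNA kit was used on total RNA. Per the submitters' processing notes, Bowtie 0.12.2 and featureCounts of Subread 1.5.1 were used, and mm8 and GRCm38 are listed as builds with no role given. Reads were recovered as FPKM times exonic length from GENCODE M21 (GRCm38; overlaps with bedtools 2.31.1): 79.2% of 15191 genes with a length, and 26 of the 30 endothelial genes, fell on multiples of 0.5 reads in both libraries (tolerance 0.01 reads); reads of the others are approximate. The smallest of the common low products of FPKM and length was set as 1 fragment of 2 reads, a choice made with the data known. The totals and the reads of each gene carry this assumed factor of 2. Intervals (scipy 1.17.1) took 2 reads as 1 fragment. The totals limit precision for low genes.

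The members and lists were chosen with earlier results of these data known. Every endothelial gene in the table is named, with up to 3 highest and 3 lowest measured genes of the related lists, though cell type lists are given mostly as sums and counts; other names are marked, and 1 gene of the lipase list is not reported here. Where rows share a symbol, the row with the highest mean was taken. The scripts were tested on simulated data. Planned protein comparisons were not made; transcripts of Ly6c1 and Ly6c2 were aligned instead. Alternatives were pseudocounts, filters, scalings, fold limits and summed symbols.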

Additional observations from a re-analysis of the deposited data

How the results depend on the processing

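The number of endothelial genes at least 2-fold lower (18) was 13 with a pseudocount of 5, 14 (of 20 measured) with a mean of 5 FPKM or more, and 18 to 20 with the scalings, a pseudocount of 0.1, no filter or no pseudocount (the last added after seeing the data); limits of 1.5-fold and 4-fold gave 19 and 12. At least 2-fold higher there was 1 gene in place of 0 with a pseudocount of 0.1, both libraries scaled to the same sum, a limit of 1.5-fold or no pseudocount. The median log2 ratio of -1.67 became -2.64 with a pseudocount of 0.1, -0.91 with 5, -2.37 with a mean of 5 FPKM or more and -2.67 without a pseudocount. For the other endothelial genes, the 10 lower and 5 higher became 5 and 2 with a pseudocount of 5, 5 and 2 with a mean of 5 FPKM or more and 4 and 2 at a limit of 4-fold, and 22 were lower at 1.5-fold. Over all genes, 1735 lower and 1828 higher became 612 and 677 with a pseudocount of 5, 909 and 946 with a mean of 5 FPKM or more, 3141 and 3239 at 1.5-fold and 345 and 419 at 4-fold. The filter and the limits admit fewer or more genes by construction, and a larger pseudocount shrinks every ratio. The other 62 recomputed values stayed within 1.5 times or, for medians, within 1.5-fold. Sparcl1 was the only endothelial gene whose log2 ratio changed sign in any setting. All 26 intervals that left out a ratio of 1 still did with every read taken as independent. No paired analysis was possible because each group held 1 library, and no library could be left out. Of the 30 genes, 5 had under 10 reads in Cdk14-sh, where the size of the ratio is poorly set.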
